A study of Mus musculus with 12 samples.

Results

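The genes described are interferon epsilon, Ifne, and a list of genes known to be induced by interferons, measured in mouse endometrium after mating. The list held 39 genes, and a gene was taken when a transcript cluster of the array carried its symbol and no other. Where several clusters did so, as for 1 gene (Irf1), the cluster with the highest mean over all arrays was used. By this rule 35 of the 39 genes were measured, among 19938 genes with a cluster of their own and 35556 clusters in all. Isg15, Gbp2 and Igtp were left out because their cluster carried a second symbol, and Ifi44 because no cluster was listed under its symbol.

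The study asked how far sperm shape the response of the uterus to seminal fluid. CBAF1 females, adult offspring of CBA and C57Bl/6 parents, were left unmated or were mated with intact BALB/c males, which deliver complete seminal fluid, or with vasectomised BALB/c males, which deliver seminal plasma. Endometrium was scraped from the uterus 8 h after mating, and RNA from 16 females per group was combined into 4 pools of 4 females, 1 pool per array and 12 arrays in all, so that the spread is that between pools. Every value is a log2 intensity on an Affymetrix Mouse Gene 1.0 ST array, and differences between groups are log2 fold-changes. Vasectomy removes sperm together with secretions of testis and epididymis, so these cannot be told apart. The unmated controls are labelled virgin estrus and were collected in the evening of pro-estrus, so that mating, hour of collection and stage of the cycle cannot be told apart in a comparison with them. Endometrial scrapings hold epithelium, stroma and leukocytes, and in such tissue a change in the number of cells of a type and a change in RNA per cell cannot be told apart.

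Type I interferons signal through the receptor pair IFNAR1 and IFNAR2 to a complex with STAT2 and IRF9, which binds interferon-stimulated response elements and induces antiviral effectors such as the IFIT, MX and OAS proteins. Interferon gamma signals through IFNGR1 and IFNGR2, acts at gamma-activated sites and induces guanylate-binding proteins, immunity-related GTPases and the immunoproteasome. Interferon epsilon is a type I interferon made constitutively by the epithelium of the female reproductive tract, where it is known for protection against genital infection and for its control by steroid hormones.

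The bases before the start of these genes were searched for both elements, because they are the sites through which the 2 interferon classes are known to act. A promoter was in the RefSeq table (build GRCm38.p6) for 25 of the 35 measured genes, and the 250 bases before the start were read on both strands. The core of the interferon-stimulated response element, taken as GAAA, any 2 bases and GAAA, was in 9 of 25 (36.0%) and in 3.46% of the 27025 genes of the table. The 9 were Bst2, Gbp3, Ifit1, Ifit3, Irgm1, Oas1a, Oas3, Rsad2 and Stat2. The gamma-activated site, taken as TTCNNNGAA, was in 8 of 25 (32%) and in 8.13% of all genes. The 8 were Bst2, Ifit2, Ifne, Irf1, Irf8, Isg20, Oas1a and Psmb8. Of the 8 genes in the table that were called after intact mating, by the limits given with the counts, 4 held the first element and 4 the second. In Bst2 the matches to the 2 elements overlapped. Stretches are shown for genes whose arrays are described next, and for Irgm1 as a gene that holds the element and did not pass the test after mating. Each is written on the strand of its gene with the matches in capitals, and a match is a likeness of letters, not a shown binding site. The first holds a gamma-activated site before Ifne, and the second one before Isg20.
Ifne, chr4:88880202-88880261, minus strand: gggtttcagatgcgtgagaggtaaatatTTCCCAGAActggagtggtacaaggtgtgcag
Isg20, chr7:78913326-78913384, plus strand: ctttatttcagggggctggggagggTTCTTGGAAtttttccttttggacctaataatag
The others hold the response element core. In Ifit3, Rsad2 and Gbp3 the capitals show it on the opposite strand, and in Bst2, Gbp3 and Irgm1 a pair of matches overlap. The stretch of Ifit3 lies inside its annotated gene, which begins at 34583119, and that of Gbp3 reaches into its gene, which begins at 142560016, because the promoter table takes a start further in.
Ifit3, chr19:34583397-34583426, plus strand: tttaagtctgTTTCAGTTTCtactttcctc
Rsad2, chr12:26456538-26456597, minus strand: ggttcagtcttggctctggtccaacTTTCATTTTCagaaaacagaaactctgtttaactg
Bst2, chr8:71537565-71537624, minus strand: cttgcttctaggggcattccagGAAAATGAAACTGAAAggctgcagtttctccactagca
Gbp3, chr3:142559977-142560036, plus strand: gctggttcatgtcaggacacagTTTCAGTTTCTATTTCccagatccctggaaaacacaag
Irgm1, chr11:48871421-48871480, minus strand: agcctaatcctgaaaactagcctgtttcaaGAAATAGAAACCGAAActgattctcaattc

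Ifne, 5 of 17 antiviral effectors, 1 of 4 sensors, 2 of 3 gamma-induced GTPases, 2 of 3 genes of the immunoproteasome and peptide transport, and Usp18 rose after mating with intact males. A gene was called when its fold-change was at least 1.5 and its adjusted p from limma at most 0.05. By this rule 12 of 35 genes (Ifne, Zbp1, Rsad2, Ifit3, Isg20, Mx2, Bst2, Usp18, Gbp3, Iigp1, Psmb8 and Psmb9) were higher after intact mating than in controls, beside 2.78% of all genes. After vasectomised mating 4 of 35 (Ifne, Rsad2, Ifit3 and Iigp1) were higher than in controls, beside 1.19% of all genes. Isg20 alone, 1 of 35, was called higher after intact than after vasectomised mating, beside 0.627% of all genes. No member was called lower by limma in any of the 3 comparisons, and the count of lower members with an unadjusted p under 0.05 was also 0 in each. The shares of all genes called lower were 2.11%, 0.657% and 0.271% for intact mating against controls, vasectomised mating against controls and intact against vasectomised mating.

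With the adjusted p alone and no limit on the fold-change, 23 of 35 genes were higher after intact mating than in controls, beside 7.64% of all genes. The same count was 11 of 35 after vasectomised mating, beside 3.51%, and 3 of 35 between the mated groups, beside 1.72%. The 4 intact arrays all lay above the 4 control arrays for 25 of 35 genes, beside 10.4% of all genes. Vasectomised arrays all lay above controls for 12 of 35, beside 7.41%, and intact arrays all above vasectomised arrays for 14 of 35, beside 9.04%. The members and the list were chosen with results of these arrays known, so the counts describe these genes and carry no test of the list. Both comparisons with unmated females use the same 4 control arrays.

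The median log2 fold-change over the 35 genes was 0.49 for intact mating against controls, 0.24 for vasectomised mating against controls and 0.19 for intact against vasectomised mating. Over all 19938 genes the medians were within 0.02 of 0. The fold-change was above 0 for 34, 33 and 30 of the 35 genes in these 3 comparisons. Within groups the members were about as variable as other genes, with a median SD of 0.129 against 0.123 for all genes.

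**Figure D1:**
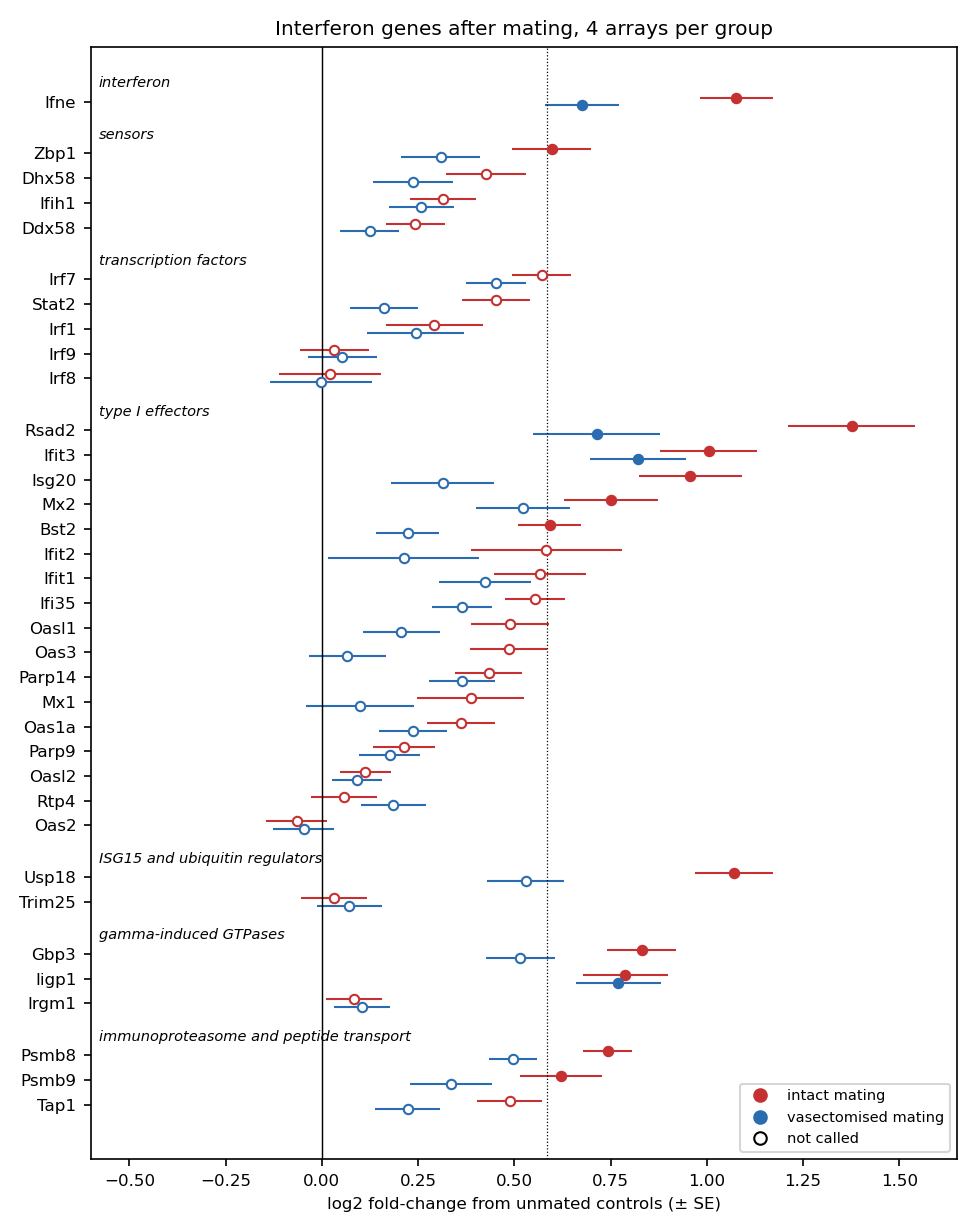
Log2 fold-change (x axis) of the 35 measured interferon genes, grouped by role, after intact mating (red) and after vasectomised mating (blue) against the same 4 control arrays. Bars are the standard error from limma, filled points passed the call, open points did not, and the dotted line marks the 1.5-fold limit. Filled points number 12 for intact and 4 for vasectomised mating, and Rsad2 lies farthest to the right at 1.38.

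Array by array, the deviation of each gene from its control mean was taken and its median over the 35 genes computed. The controls lay at -0.04, -0.19, 0.10 and 0.08, the vasectomised arrays at 0.17, 0.20, 0.28 and 0.33, and the intact arrays at 0.55, 0.42, 0.45 and 0.53. The 3 groups did not overlap, with means of -0.01 ± 0.13, 0.24 ± 0.07 and 0.49 ± 0.06 (SD, n = 4 each). The controls were the most spread out, and control arrays 1 and 2 lay below control arrays 3 and 4, a split that also shows on the second principal component of all clusters (17.4% of the variance). Markers of other cells moved with this split. The mean level of 7 stromal markers was 9.78 and 9.79 on control arrays 1 and 2 against 9.01 and 8.88 on control arrays 3 and 4, that of 5 blood endothelial markers 7.96 and 7.90 against 7.14 and 7.09, and that of 8 macrophage markers 8.87 and 8.89 against 8.35 and 8.11. Their part in the members' values was not tested. Against control arrays 3 and 4 alone the median fold-change was 0.35 after intact and 0.13 after vasectomised mating. Against control arrays 1 and 2 alone it was 0.61 and 0.36, and 21 of 35 genes were then called after intact mating.

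**Figure D2:**
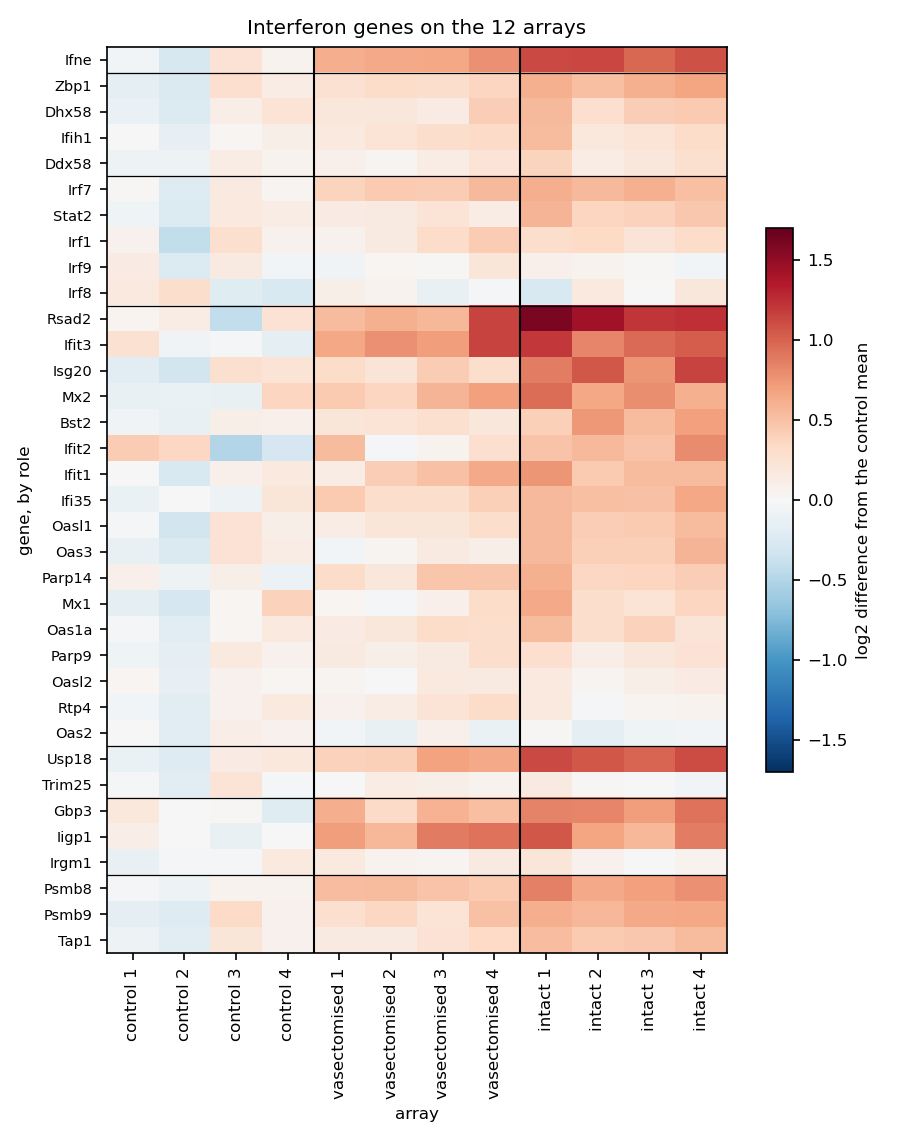
Each cell is the log2 value of 1 gene on 1 array minus the mean of the 4 controls (red above, blue below the control mean), with genes in rows by role and the 12 arrays in columns. The 4 intact columns are the reddest, the 4 vasectomised columns paler, and control columns 1 and 2 mostly bluer than control columns 3 and 4.

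Ifne, the interferon of the list, lies at chr4:88879538-88880201 (GRCm38.p6, minus strand). Its values were 8.84, 8.62, 9.14 and 8.95 in controls, 9.50, 9.53, 9.55 and 9.67 after vasectomised mating, and 10.01, 10.03, 9.86 and 9.97 after intact mating. The 3 groups were fully separated in this order. Ifne was 1.08 ± 0.10 (SE) higher on the log2 scale after intact mating than in controls, a 2.11-fold change with a limma adjusted p of 2.39e-05. After vasectomised mating it was 0.68 ± 0.10 higher, 1.60-fold, with an adjusted p of 0.00249. Against control arrays 3 and 4 alone the second rise was 0.52 and under the 1.5-fold limit. Intact exceeded vasectomised mating by 0.40 (95% CI 0.19 to 0.61), with an adjusted p of 0.0503.

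Of the other interferon genes, 15 of the 20 listed were measured, and 0 were called by limma in any comparison, with 0 also at an unadjusted p under 0.05. Their log2 fold-changes after intact mating ran from -0.06 to 0.24. Ifnb1, the interferon beta gene, stood at 5.44, 5.50, 5.64 and 5.34 in controls and 5.45, 5.61, 5.59 and 5.61 after intact mating, a difference of 0.08 ± 0.11. Ifng, which encodes interferon gamma, stood at 5.97, 6.01, 6.16 and 5.85 in controls and 6.08, 5.99, 6.04 and 5.93 after intact mating, a difference of 0.01 ± 0.08. The control and intact arrays overlapped for both. Both clusters lay in the dim range of the arrays, with means under 7.28, the median of all clusters, as did all but 3 of the 15 interferon genes.

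Among 9 measured receptor and JAK-STAT genes of the wider pathway the median log2 fold-change after intact mating was 0.30. Ifngr2, a chain of the gamma receptor, was called after intact mating, rising by 0.62 ± 0.09 (adjusted p = 0.000652), although without control array 2 the value was 0.56 and under the 1.5-fold limit. The other chains passed the adjusted p alone after intact mating, with log2 fold-changes of 0.57 for Ifnar2, 0.39 for Ifngr1, 0.36 for Ifnar1 and 0.30 for Il10rb, and Ifnar2 was called without control array 1 (0.60). Ifnlr1, the chain private to the lambda receptor, had a value of 0.30 with an adjusted p of 0.0599. After vasectomised mating Ifnar2, Ifngr1 and Ifngr2 passed the adjusted p alone at 0.47, 0.41 and 0.34. The kinase gene Jak2 ran the other way. It stood at 11.76, 11.65, 11.89 and 11.91 in controls, 11.58, 11.56, 11.70 and 11.77 after vasectomised mating and 11.35, 11.21, 11.20 and 11.16 after intact mating, so that the intact arrays lay below all others. Its log2 fold-change of -0.57 ± 0.08 after intact mating passed the adjusted p (0.000518) and missed the 1.5-fold limit, and that of intact against vasectomised mating was -0.42 (adjusted p = 0.0186). With quantile normalization (-0.60), or with control array 2 (-0.62) or intact array 1 (-0.61) left out, the first was called lower. Jak1 and Tyk2, the kinases paired with the type I receptor, had values of -0.11 and -0.00 after intact mating.

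The cytoplasmic sensors of foreign nucleic acid, Ddx58 (RIG-I), Ifih1 (MDA5), its relative Dhx58 and the Z-form nucleic acid sensor Zbp1, were all above 0 in both comparisons with controls, and 1 of 4 was called. Zbp1 read 10.68, 10.60, 11.13 and 10.97 in controls, 11.10, 11.16, 11.14 and 11.21 after vasectomised mating, and 11.45, 11.35, 11.45 and 11.52 after intact mating. The intact arrays lay above all the others, while the vasectomised arrays overlapped with controls. The rise after intact mating was 0.60 ± 0.10 (adjusted p = 0.00282). It rested on the 1.5-fold limit, being 0.54 without control array 1, 0.51 without control array 2, 0.57 without intact array 4 and 0.39 against control arrays 3 and 4. Dhx58 at 0.43 and Ifih1 at 0.31 passed the adjusted p alone, and Ddx58 at 0.24 did not.

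Beside these sensors, Ikbke encodes a kinase that phosphorylates IRF3 and IRF7 and so takes part in interferon induction. Its values were 9.17, 9.06, 9.01 and 8.81 in controls, 9.48, 9.43, 9.71 and 9.85 after vasectomised mating, and 10.29, 10.33, 10.24 and 10.51 after intact mating. The 3 groups were separated. Of the 90 other measured pathway genes it was the single one called in all 3 comparisons, at 1.33 (adjusted p = 1.18e-05) and 0.61 (0.00842) against controls and 0.72 (0.00837) between the mated groups. The value for vasectomised mating was under the 1.5-fold limit without control array 4 (0.54), vasectomised array 3 (0.58) or vasectomised array 4 (0.53).

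None of the 5 transcription factor genes was called by limma, with 3 of 5 at an unadjusted p under 0.05 after intact mating. Irf7, the factor that amplifies type I interferon production, was the largest. It read 11.22, 10.99, 11.34 and 11.24 in controls, 11.58, 11.64, 11.63 and 11.75 after vasectomised mating and 11.81, 11.75, 11.81 and 11.71 after intact mating. Every mated array was above every control, and the mated groups overlapped. The fold-changes of 0.57 after intact and 0.45 after vasectomised mating passed the adjusted p (0.000518 and 0.00723) and missed the fold limit, which the first exceeded without control array 3 (0.62), control array 4 (0.59) or intact array 4 (0.59). Stat2, a part of the complex that binds the response element, stood at 0.45 after intact mating (adjusted p = 0.00625) and 0.16 after vasectomised mating. Irf9, its partner in that complex, was at 0.03 and 0.05. Irf1, a main factor downstream of interferon gamma, was at 0.29 and 0.24 and did not pass the adjusted p, and Irf8 was at 0.02 and -0.00.

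Among the effectors induced by type I interferon, 17 of 19 were measured, and 5 were called after intact mating and 2 after vasectomised mating. The median log2 fold-change of the 17 was 0.49 and 0.22. Rsad2 encodes viperin, a radical enzyme that makes a chain-terminating nucleotide. Its values were 8.69, 8.77, 8.21 and 8.88 in controls, 9.17, 9.24, 9.20 and 9.79 after vasectomised mating, and 10.24, 10.07, 9.86 and 9.88 after intact mating. The groups did not overlap, although vasectomised array 4 came close to the intact arrays. Rsad2 had the highest fold-change of all members after intact mating, 1.38 ± 0.16 or 2.6-fold (adjusted p = 0.000217). After vasectomised mating it rose by 0.71 ± 0.16 (adjusted p = 0.0316). The second call was lost without control array 3 (0.57, adjusted p = 0.0594), vasectomised array 2 (0.0571), vasectomised array 3 (0.0556) or vasectomised array 4 (0.57, adjusted p = 0.0745).

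Ifit3 encodes a member of the IFIT family. It read 11.49, 11.16, 11.18 and 11.06 in controls, 11.87, 11.996, 11.93 and 12.38 after vasectomised mating and 12.43, 12.05, 12.18 and 12.24 after intact mating. Both mated groups lay above the controls and overlapped with each other. It rose by 1.00 ± 0.13 after intact mating (adjusted p = 0.000293) and by 0.82 ± 0.13 after vasectomised mating (adjusted p = 0.00376). Its neighbours on chromosome 19 were not called: Ifit1 had values of 0.57 and 0.42, the first past the adjusted p, and Ifit2 values of 0.58 and 0.21, neither past it. After intact mating Ifit1 was called without control array 3 (0.60), control array 4 (0.62) or intact array 2 (0.61), and Ifit2 without control array 1 (0.73) or control array 2 (0.70).

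Isg20 encodes an exonuclease that degrades single-stranded RNA. Its values were 10.16, 10.04, 10.63 and 10.58 in controls, 10.66, 10.57, 10.78 and 10.66 after vasectomised mating, and 11.23, 11.41, 11.10 and 11.51 after intact mating. The intact arrays stood apart from both other groups, which overlapped. Isg20 rose by 0.96 ± 0.13 after intact mating (adjusted p = 0.000644), and its value after vasectomised mating was 0.31 (adjusted p = 0.226).

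Mx2 is a gene of the MX family of dynamin-like GTPases. It read 8.30, 8.30, 8.29 and 8.79 in controls, 8.87, 8.79, 8.99 and 9.12 after vasectomised mating and 9.36, 9.08, 9.21 and 9.03 after intact mating. Control array 4 stood apart from its group and reached the lowest vasectomised array. The rise after intact mating was 0.75 ± 0.12 (adjusted p = 0.0019), and the value of 0.52 after vasectomised mating passed the adjusted p alone (0.0335). Without control array 4 the latter was 0.65 and called. Mx1 beside it on chromosome 16 had values of 0.39 and 0.10 and did not pass the adjusted p. Against control arrays 1 and 2 alone Mx1 was called after intact mating (0.60).

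Bst2 encodes tetherin, which holds budding viruses at the cell surface. It read 9.29, 9.22, 9.44 and 9.43 in controls, 9.55, 9.57, 9.62 and 9.53 after vasectomised mating and 9.75, 10.08, 9.88 and 10.04 after intact mating. The 3 groups did not overlap. The rise of 0.59 ± 0.08 after intact mating (adjusted p = 0.000575) lay at the 1.5-fold limit and was under it without control array 1 (0.57), control array 2 (0.55), intact array 2 (0.54) or intact array 4 (0.56). Bst2 is also a marker of plasmacytoid dendritic cells.

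The other 12 effectors were not called in any comparison. Of the 2'-5' oligoadenylate synthetase family, Oas1a (0.36), Oas3 (0.48) and Oasl1 (0.49) passed the adjusted p alone after intact mating. Oas2 was at -0.07 and Oasl2 at 0.11, both with overlap of all groups, so members of 1 family on chromosome 5 differed in whether they passed. Ifi35 at 0.55 and Parp14 at 0.43 passed the adjusted p after intact mating, and also after vasectomised mating at 0.36 each, and Ifi35 was called after intact mating without control array 4 (0.62). Parp9 (0.21) and Rtp4 (0.06) did not pass it.

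Usp18 removes ISG15 from proteins and holds back signalling at IFNAR2. It read 10.68, 10.58, 10.93 and 10.98 in controls, 11.18, 11.19, 11.48 and 11.44 after vasectomised mating and 11.92, 11.84, 11.78 and 11.91 after intact mating. The groups were separated, and the 4 intact arrays lay within a narrow range. It rose by 1.07 ± 0.10 after intact mating, 2.10-fold (adjusted p = 3.46e-05). The value of 0.53 after vasectomised mating passed the adjusted p alone (0.0126), and without control array 4 it was 0.59 and called. Trim25, a ubiquitin ligase that activates RIG-I, was at 0.03 and 0.07.

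**Figure D3:**
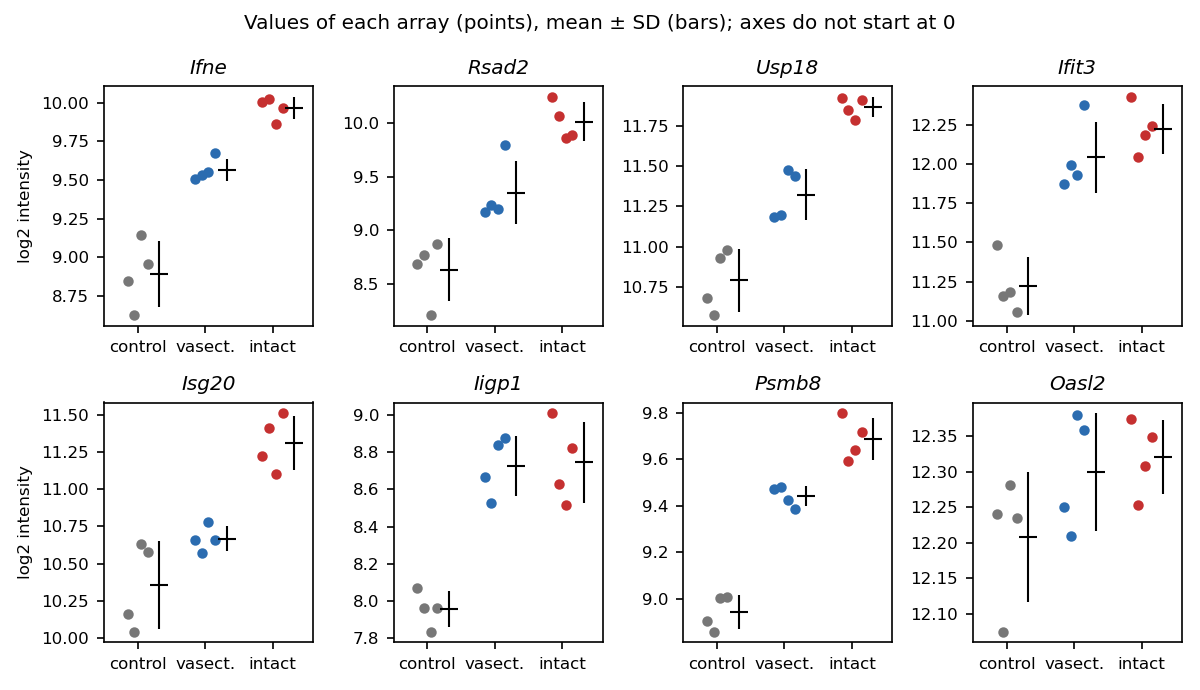
Log2 intensity (y axis, a separate scale for each gene) on each of the 4 arrays of the control (grey), vasectomised (blue, vasect.) and intact (red) groups for 8 interferon genes, with mean ± SD in black. Ifne, Rsad2 and Usp18 climb in 3 steps, Ifit3 and Iigp1 overlap between the mated groups, Isg20 stands apart after intact mating, and Oasl2 overlaps in all groups.

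Of the 5 GTPases known as targets of interferon gamma, 3 were measured: Gbp3, a guanylate-binding protein, and Iigp1 and Irgm1, immunity-related GTPases that act on the vacuoles of intracellular pathogens. Gbp3 read 9.49, 9.31, 9.32 and 9.10 in controls, 9.92, 9.63, 9.90 and 9.82 after vasectomised mating and 10.15, 10.14, 10.02 and 10.23 after intact mating. The groups did not overlap, and it rose by 0.83 ± 0.09 after intact mating (adjusted p = 0.000106). Its value of 0.52 after vasectomised mating passed the adjusted p alone (0.00839).

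Iigp1 read 8.07, 7.96, 7.84 and 7.96 in controls, 8.67, 8.52, 8.84 and 8.88 after vasectomised mating and 9.01, 8.63, 8.52 and 8.82 after intact mating. All mated arrays lay above the controls, and the mated groups covered nearly the same range. Iigp1 rose by 0.79 ± 0.11 after intact mating (adjusted p = 0.000683) and by 0.77 ± 0.11 after vasectomised mating (adjusted p = 0.00269). Irgm1 was at 0.08 and 0.11 and passed no threshold.

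The type I effectors were set beside the gamma-induced GTPases by their medians. These names do not divide the promoter matches given above. Gbp3 and Irgm1 held the response element core, and the effectors Bst2, Ifit2, Isg20 and Oas1a held a gamma-activated site. The median log2 fold-change against controls was 0.49 after intact and 0.22 after vasectomised mating for the 17 effectors, and 0.79 and 0.52 for the 3 GTPases. The median of the difference between the mated groups was 0.19 for the effectors and 0.02 for the GTPases, the latter being the value of Iigp1. Gbp3 differed by 0.31 (95% CI 0.12 to 0.51, limma adjusted p = 0.0934), with each intact array above each vasectomised array, and Irgm1 by -0.02. Whether the 2 groups of genes differ was not tested, and 3 genes are few. The wider list of GTPases added 6 measured genes, of which 3 were above 0 and 3 below after intact mating, with a median of -0.05. Gbp8 at -0.39 passed the adjusted p alone (0.0495) and Gbp5 was called higher. Gbp5 read 6.52, 6.40, 6.07 and 5.87 in controls, 7.47, 6.44, 7.503 and 7.44 after vasectomised mating and 7.74, 7.98, 7.41 and 8.07 after intact mating. In controls Gbp5 lay in the dim range, under 7.28, the median of all clusters. It rose by 1.59 ± 0.24 after intact mating (adjusted p = 0.00104) and by 1.00 ± 0.24 after vasectomised mating (adjusted p = 0.0353), where array 2 lay within the controls. The second call was lost without control array 3 (adjusted p = 0.0772), control array 4 (0.101), vasectomised array 1 (0.0945), vasectomised array 3 (0.109) or vasectomised array 4 (0.0997).

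Psmb8 and Psmb9 encode catalytic subunits of the immunoproteasome, and Tap1 a subunit of the transporter that carries the cut peptides to class I molecules. The 3 genes lie side by side on chromosome 17 (Psmb9 from 34182030 to 34187330, Tap1 from 34187556 to 34197225 and Psmb8 from 34198195 to 34201454, GRCm38.p6). Psmb8 read 8.90, 8.86, 9.003 and 9.01 in controls, 9.47, 9.48, 9.43 and 9.39 after vasectomised mating and 9.80, 9.59, 9.64 and 9.72 after intact mating. These were among the tightest values of the list, the groups were separated, and the rise after intact mating was 0.74 ± 0.06 (adjusted p = 1.79e-05). After vasectomised mating the value of 0.50 passed the adjusted p alone (0.00149). Psmb9 read 9.11, 9.05, 9.59 and 9.34 in controls, 9.54, 9.62, 9.51 and 9.77 after vasectomised mating and 9.89, 9.84, 9.92 and 9.93 after intact mating. The intact arrays lay above the rest and the other groups overlapped. Its rise of 0.62 ± 0.11 after intact mating (adjusted p = 0.0028) was under the 1.5-fold limit without control array 1 (0.56) or control array 2 (0.55). Tap1 was at 0.49 after intact mating, past the adjusted p alone (0.00286), and at 0.22 after vasectomised mating.

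The wider list of gamma-induced antigen presentation genes had 13 measured members, with 3 called after intact mating and 1 after vasectomised mating. The chemokine gene Cxcl10 read 7.55, 7.58, 6.41 and 6.30 in controls, 9.45, 7.54, 8.40 and 8.56 after vasectomised mating and 9.07, 9.48, 8.83 and 9.55 after intact mating. It rose by 2.27 ± 0.39 after intact mating (adjusted p = 0.00268). After vasectomised mating it rose by 1.53 ± 0.39 (adjusted p = 0.0483), with array 2 within the controls. That call was lost without any 1 array other than control 1, control 2 or vasectomised 2, with adjusted p from 0.0617 to 0.127. Cd274, which encodes the checkpoint ligand PD-L1, rose by 0.97 ± 0.11 and the proteasome activator Psme2 by 0.69 ± 0.08 after intact mating (adjusted p = 0.000131 and 0.000125). Between the mated groups Cd274 was at 0.55 (adjusted p = 0.0258), short of the fold limit except without intact array 3 (0.63) or vasectomised array 4 (0.60).

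Other interferon-induced effectors, 33 measured of 37 listed, gave 6 called after intact mating and 1 after vasectomised mating. Those with the highest fold-changes after intact mating were the ISG15-conjugating enzyme gene Ube2l6 (0.88, adjusted p = 9.44e-05), the helicase gene Ddx60 (0.84, 0.000199), Tor3a (0.82, 1.72e-05) and the growth regulator Slfn2 (0.73, 9.91e-05). Ddx60 was also called after vasectomised mating (0.72, adjusted p = 0.00219), and so was Ube2l6 without control array 4 (0.61) or vasectomised array 1 (0.62). In the whole wider list 12 of 90 measured genes were called higher after intact mating, 4 after vasectomised mating and 1 between the mated groups, with 0 called lower by limma in any of them. With the limma adjusted p alone the lower genes numbered 3, 0 and 1. The higher genes then numbered 37, 19 and 4, beside 7.64%, 3.51% and 1.72% of all genes. At an unadjusted p under 0.05 the lower genes numbered 3, 0 and 3. The shares of all genes called higher, given above for the members, apply here as well.

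Between the mated groups, 3 members passed the adjusted p, all higher after intact mating. Isg20 differed by 0.64 (95% CI 0.35 to 0.93, adjusted p = 0.0293), Usp18 by 0.54 (0.32 to 0.76, adjusted p = 0.0193) and Bst2 by 0.37 (0.19 to 0.55, adjusted p = 0.0365), and Isg20 alone was also past the 1.5-fold limit. For these 3 genes each intact array lay above each vasectomised array. The call of Isg20 was lost without intact array 2 (adjusted p = 0.0885), intact array 4 (0.0966) or any of the vasectomised arrays (0.0633 to 0.0790). The count of called members was 0 without intact array 2, intact array 4, vasectomised array 1 or vasectomised array 2, and 2 without control array 3. Usp18 reached the fold limit without vasectomised array 3 (0.59, adjusted p = 0.0336). Rsad2 differed by 0.66 (0.30 to 1.02) with an adjusted p of 0.0579, and without vasectomised array 4 by 0.81 with an adjusted p of 0.0322.

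For other members the interval of the difference bounds what could have been missed. Iigp1 differed by 0.02, with an interval from -0.22 to 0.26. Ifit3 differed by 0.18, with an interval from -0.09 to 0.46, and Mx2 by 0.23, from -0.04 to 0.49. Oas3 differed by 0.42, from 0.20 to 0.64, with each intact array above each vasectomised array and a limma adjusted p of 0.0510. A p that misses the threshold does not show that the groups responded alike, and 30 of 35 differences were above 0.

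**Figure D4:**
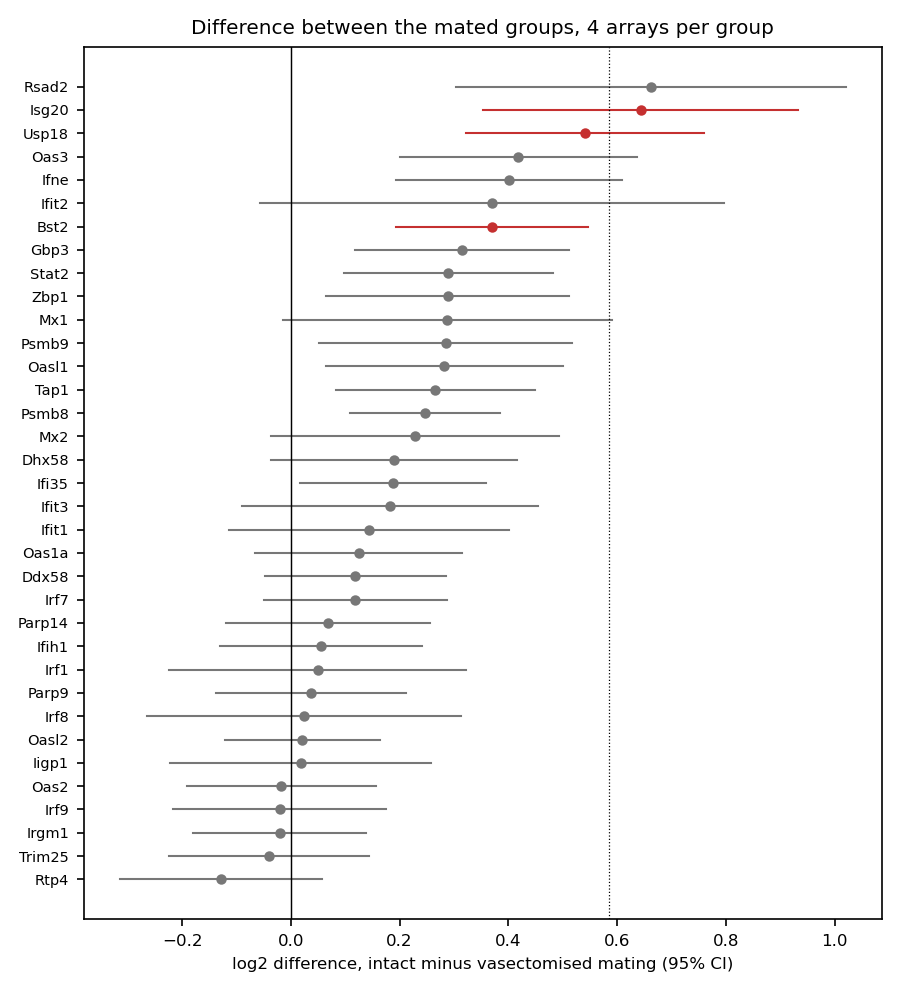
Log2 difference between intact and vasectomised mating (x axis) for the 35 interferon genes in order of size, with the 95% confidence interval from limma. Red marks the 3 genes with an adjusted p of at most 0.05, the dotted line marks the 1.5-fold limit, and differences run from -0.13 for Rtp4 to 0.66 for Rsad2.

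Some markers of other cell types moved with the groups. Of 9 measured neutrophil markers, 3 (S100a9, Csf3r and Cxcr2) were called higher after intact mating than in controls and than after vasectomised mating, and 0 after vasectomised mating, where 1 had an unadjusted p under 0.05. The mean level of the 9 ran from 6.499 to 6.61 in controls, 6.62 to 6.79 after vasectomised mating and 7.004 to 7.44 after intact mating. The members also ran in this order. The list medians were 0.36 after intact mating, 0.15 after vasectomised mating and 0.15 between the mated groups. After vasectomised mating Itgam had the largest value (0.39), while S100a8 (-0.03) and Camp (-0.02) were below 0. Between the mated groups Itgam (-0.03) and Mmp8 (-0.05) were below 0. The neutrophil calls between the mated groups were lost for Csf3r and S100a9 without intact array 4 or vasectomised array 3 or 4, without intact array 2 or vasectomised array 2 for Csf3r, and without vasectomised array 1 for S100a9, at adjusted p from 0.0518 to 0.0777. Among 8 macrophage markers Cd14 was called in both comparisons with controls, while 4 of the 8 were above 0 and 4 below after intact mating, with a median of -0.05. Of 5 markers of plasmacytoid dendritic cells, Bst2 and Ly6d were called after intact mating, with mean levels of the 5 at 7.78 to 7.96 in controls, 7.79 to 7.91 after vasectomised mating and 7.99 to 8.13 after intact mating. The other markers of the list, Siglech (-0.02), Ccr9 (0.03) and Tcf4 (-0.37), were not called higher, the list median was 0.03, and Bst2 is itself a member. Of 10 T and NK cell markers 0 were called in any comparison, with at most 1 at an unadjusted p under 0.05 in either direction. All of these but Cd3e had means in the dim range, under 7.28, the median of all clusters. So did Siglech, Ccr9 and all neutrophil markers but Itgam. A marker not called in this range does not show that its cells were unchanged. Cd3e was higher after intact than after vasectomised mating by 0.27 and passed the limma adjusted p alone (0.0458). The 7 epithelial markers averaged 11.72 to 11.87 over all arrays, with 0 called and at most 2 higher at an unadjusted p under 0.05. Of these, Muc1 alone passed the limma adjusted p, at 0.32 after intact mating (0.00248) and 0.29 after vasectomised mating (0.0124). Its mated arrays all lay above the controls, while the list medians were 0.06 and 0.00. All 7 stromal markers were below 0 after intact and after vasectomised mating (medians -0.55 and -0.41) and in intact against vasectomised mating (-0.21). Col1a1 was called lower after intact mating at -0.75. That call was lost without any 1 array other than control 3, control 4, vasectomised 1 or vasectomised 2, at adjusted p from 0.0523 to 0.109. The 5 blood endothelial markers were all below 0 after intact mating (median -0.21), and 4 of 5 after vasectomised mating (median -0.04). In intact against vasectomised mating all 5 were below 0 (median -0.14). The 5 smooth muscle markers had medians of 0.08 and 0.20 against controls. Between the mated groups all 5 of them were below 0 (median -0.12). In both of these lists limma called 0 in any comparison, with 0 also at an unadjusted p under 0.05. The size of the stromal and endothelial falls against controls depended on which control arrays were used. On control arrays 3 and 4 the mean stromal level was 9.01 and 8.88, within the range of the mated arrays, 8.46 to 9.33. The mean endothelial level there was 7.14 and 7.09, against 7.08 to 7.62 after intact and 7.22 to 7.86 after vasectomised mating. The part of these cell types in the members' changes was not tested.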

How the data were processed

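Endometrial RNA was measured on 12 Affymetrix Mouse Gene 1.0 ST arrays, 4 per group, each labelled from 300 ng of RNA pooled from 4 females. In Partek Genomics Suite the authors applied RMA background correction and a GC content correction, took the mean over the probes of a cluster and deposited the result as log2 values. Tool versions: not given in the sources used here. Groups came from the sample labels, and the per-array columns not used numbered 0. Of 35556 transcript clusters, 21789 carried 1 symbol in the array annotation, 1621 several and 12146 none. Only clusters with 1 symbol were named, since a shared cluster cannot be assigned. The number of arrays limits the precision, array medians ran from 7.25 to 7.32, and arrays of a group correlated at 0.983 or more.

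All clusters were fitted with 1 mean per group in limma 3.58.1 under R 4.3.3, with moderated variances (prior degrees of freedom 3.26, residual 9) and the Benjamini-Hochberg correction over all clusters within each of 3 comparisons. The limits, a fold-change of 1.5 and an adjusted p of 0.05, are those of the methods, which name an ANOVA. Promoters were the 250 bases before the RefSeq start. The code was tested on simulated data. Members, gene lists, markers and motifs were chosen with earlier results of these data known. By the naming rule, values of each array are given for Ifne, called members and the leading member of each role. From the wider pathway the rule took receptors, JAK and STAT genes, Ifnb1, Ifng, genes called between the mated groups and up to 4 called genes per list. The markers named and Gbp8 were chosen after their values were seen.

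The alternatives were quantile normalization, median centring, trend and robust moderation, no moderation, weights per array, the replicate number as a block, a fit without the third group, dim clusters left out, correction over 1 cluster per gene, the cluster with the lowest mean, a fold-change of 2 or none, each array left out, and either pair of controls.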

Additional observations from a re-analysis of the deposited data

Results flagged for a closer look

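In 105 groups of 4 arrays (35 genes in 3 groups) the highest and lowest array were compared with the rest by Dixon's ratio, and 2 groups were past its 95% limit, where chance gives about 1 in 20. Mx2 in control array 4 read 8.79, against 8.29 to 8.30 in the other control arrays. Rsad2 in vasectomised array 4 read 9.79, against 9.17 to 9.24 in the other vasectomised arrays. The responses to intact and to vasectomised males differed past the adjusted p from limma for 3 genes, by 0.64 on the log2 scale for Isg20, 0.37 for Bst2 and 0.54 for Usp18, each higher on 4 of 4 intact arrays.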

How the results depend on the processing

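The 12 members called after intact mating became 4 when 2-fold was required, 23 with no fold limit and 21 with controls 1 and 2 only, and ran from 10 to 15 when each array was left out. The 4 called after vasectomised mating became 0 when 2-fold was required and 11 with no fold limit, and ran from 3 to 6 without each array. The 1 member called between the mated groups became 2 under quantile normalization, median centring, array weights, a fit without the control arrays, without dim clusters or with correction over 1 cluster per gene. It became 0 without variance moderation or when 2-fold was required, and 3 with no fold limit, and ran from 0 to 2 without each array. Median fold-changes after intact and vasectomised mating were 0.35 and 0.13 with controls 3 and 4 only, and 0.61 and 0.36 with controls 1 and 2 only. No member was called lower under any alternative run. Under quantile normalization Zbp1 and Bst2 fell under the 1.5-fold limit (0.58 each) after intact mating. Deviations of same-numbered arrays correlated from -0.26 to 0.20. Arrays with different numbers were not compared in this way, so whether equal numbers pair the arrays was not tested. With the replicate block the counts were 12, 4 and 0. Of 5150 recomputed fold-changes of single genes, 4943 kept their side of the limits, 122 lost a call, 85 gained one and 0 called values changed sign, while 83 uncalled values did. In the whole 300 bases of the promoter table the response element was in 44.0% of members and 3.99% of all genes, and the gamma-activated site in 36.0% and 9.55%. Beyond the changes that follow from another limit or other arrays, the cause was not tested.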
